A study of Drosophila melanogaster with 3 samples.

Results

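The peaks described here are sites of a tagged Pif1B protein deep inside genes, in introns other than the first. They were taken from the authors' list of 6410 peaks filtered by irreproducible discovery rate (IDR), a measure of agreement in rank between replicates, in the dm6 build of the fruit fly genome. A peak belonged to the set when its summit lay more than 500 bp from every annotated gene start, in no exon, and inside an intron of a protein-coding gene but in the first intron of no transcript. This held for 901 of the 6410 peaks, or 14.1% (95% Clopper-Pearson interval 13.2 to 14.9). They are called later-intron peaks below. They were compared with 4615 weaker regions of the same class, which are regions of the relaxed list of the pooled libraries that overlap no IDR peak, and with 1826 distal IDR peaks in first introns.

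The data are chromatin immunoprecipitation with sequencing (ChIP-seq) from whole pupae of Drosophila melanogaster of unknown age, with males and females pooled. All animals came from 1 transgenic strain, Pif1B-GFP, that expresses Pif1B with a green fluorescent protein (eGFP) at its C-terminus, and chromatin was precipitated with an antibody against the tag. There was 1 group of 3 biological replicates and no second stage, genotype or treatment, so no condition could be compared. The whole animal was sampled, so the cell types behind a peak are unknown, and the tagged protein is a transgene beside the fly's own gene. Only peak lists were used, so the depth of the libraries is unknown, and signal values, which are the authors' own, rank regions within a list.

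Introns are removed from the transcript, but their DNA often holds enhancers, short stretches where transcription factors bind and raise or lower the activity of a promoter that can lie far away. In flies, the first intron is known as a frequent place for such elements because it lies next to the promoter. Later introns are further along the gene, and long ones are common in genes of signalling, adhesion and development. Pif1B is named as an interactor of a PFTAIRE kinase, and its gene shares DNA with that of Pif1A.

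The summit sequences of 6 of the 7 strongest later-intron peaks are shown, with that of the peak at place 4 left out, because they illustrate the base composition described further on. Each is the stretch within 50 bp of a summit, read 5′ to 3′ on the plus strand from the RefSeq genome of the same assembly (Release 6, dm6). Capitals mark any of the 10 six-letter words most over-represented at later-intron summits, on either strand. The first window is 21.8% G or C and holds none of these words. The Raf window, at 39.6%, holds 2.
CG11050, chr2L:6612655-6612755: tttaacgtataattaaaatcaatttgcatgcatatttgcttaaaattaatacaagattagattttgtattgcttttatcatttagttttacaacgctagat
Raf, chrX:2300656-2300756: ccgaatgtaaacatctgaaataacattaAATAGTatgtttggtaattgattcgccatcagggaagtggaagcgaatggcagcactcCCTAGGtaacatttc
Trl, chr3L:14759475-14759575: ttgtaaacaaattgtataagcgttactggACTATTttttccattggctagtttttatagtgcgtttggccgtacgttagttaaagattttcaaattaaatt
upSET, chr3L:14005032-14005132: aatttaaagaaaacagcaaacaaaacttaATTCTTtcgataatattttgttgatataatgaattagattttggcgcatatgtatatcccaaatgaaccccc
Pif1B and Pif1A, chr3R:8789143-8789243: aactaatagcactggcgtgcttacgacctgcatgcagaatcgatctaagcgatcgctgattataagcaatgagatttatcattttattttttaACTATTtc
Tet, chr3L:2824173-2824273: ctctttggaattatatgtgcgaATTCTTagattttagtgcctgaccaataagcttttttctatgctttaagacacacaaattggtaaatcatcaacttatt

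The windows of the next set, of the same size, hold a word that differed between later-intron peaks and weaker regions in a test described below. In the first 3, capitals mark AGGATA or its reverse complement, a word bound by Tramtrack, a zinc finger repressor. In the last 3 they mark GAGAG or its reverse complement, the core of the site of GAGA factor. The genes encode Pli, a Pellino-family regulator of Toll signalling, tai, a coactivator of the ecdysone receptor, CG12535, fz2, a Wnt receptor, Raf, a kinase, and Kdm2, a histone demethylase. The Kdm2 window, at 52.5% G or C, has the highest G and C content among the 100 strongest later-intron peaks.
Pli, chr3R:23886405-23886505: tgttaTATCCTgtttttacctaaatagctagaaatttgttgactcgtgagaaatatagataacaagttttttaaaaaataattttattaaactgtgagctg
tai, chr2L:9211316-9211416: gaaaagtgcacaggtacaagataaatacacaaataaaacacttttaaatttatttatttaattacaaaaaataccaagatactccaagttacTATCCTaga
CG12535, chrX:3409023-3409123: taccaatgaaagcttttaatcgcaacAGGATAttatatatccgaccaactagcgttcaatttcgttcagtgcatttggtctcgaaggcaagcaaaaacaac
fz2, chr3L:19194204-19194304: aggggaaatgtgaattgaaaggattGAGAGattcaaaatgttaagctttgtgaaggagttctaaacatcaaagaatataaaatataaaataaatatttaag
Raf, second window, chrX:2297678-2297778: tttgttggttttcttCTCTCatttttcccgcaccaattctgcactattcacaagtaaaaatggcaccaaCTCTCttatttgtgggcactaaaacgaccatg
Kdm2, chr3R:9057640-9057740: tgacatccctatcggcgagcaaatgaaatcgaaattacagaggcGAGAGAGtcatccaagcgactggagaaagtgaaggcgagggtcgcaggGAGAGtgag

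The strongest later-intron peak had a signal value of 1865 and lay in the second intron of CG11050 (chromosome 2L, 6612400 to 6612915, summit 6612705). It was at rank 3 of the IDR list and ranked 4, 1 and 4 in the lists of replicates 1, 2 and 3. That intron is 140 bp long, so the 516 bp peak extends past it. The next was a peak of 870 in Raf, the kinase that relays receptor tyrosine kinase signals to the MAP kinase cascade (X, 2300549 to 2300875). It ranked 55, 78 and 41 in the 3 replicates. The signal of the CG11050 peak thus stood far above those of all other later-intron peaks.

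Other strong peaks lay in genes of varied function. Trl, which encodes GAGA factor, a zinc finger protein that keeps promoters open, held a peak of 794 in its second intron that ranked 87, 67 and 68. The second intron of upSET, which encodes a SET domain protein, held a peak of 673 (ranks 176, 166 and 75). Tet, a member of the family of enzymes that oxidise methyl groups on nucleic acids, held one of 610 in an intron of 54.9 kb (ranks 221, 141 and 133). JIL-1, a kinase of histone H3, held one of 526 in intron 3 (ranks 306, 173 and 262). Psc, which encodes a subunit of a Polycomb complex, held one of 694 (ranks 167, 60 and 147).

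A second peak in Raf had a signal value of 571 and ranked 198, 240 and 141. Peaks lay in introns of Myc, a transcription factor of cell growth (549; ranks 233, 327 and 179), and of ex, an upstream component of the Hippo pathway (535; ranks 133, 410 and 256). The third intron of spen, which encodes a nuclear RNA-binding protein, held a peak of 566 (ranks 123, 382 and 189). The other genes in the first 15 were CG5854 (587; ranks 146, 261 and 200), CG6678 (515; ranks between 203 and 378) and mtgo, a gene with fibronectin-type domains (498; ranks 279, 168 and 250). The CG5854 intron is 219 bp long, and the peak there is wider than the intron.

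The locus of the tagged protein itself was among them. A peak of 617 lay in an intron that belongs to both Pif1B and Pif1A (3R, 8789061 to 8789351) and ranked 142, 151 and 114. The strain carries an added copy of Pif1B, and whether that copy adds reads at this place cannot be told apart from binding with peak lists alone. All 15 strongest later-intron peaks were supported by all 3 replicates, where support means an overlap of at least 1 bp with one of a replicate's 6410 strongest regions. The plot of ranks shows how closely the replicates placed them.

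**Figure D1:**
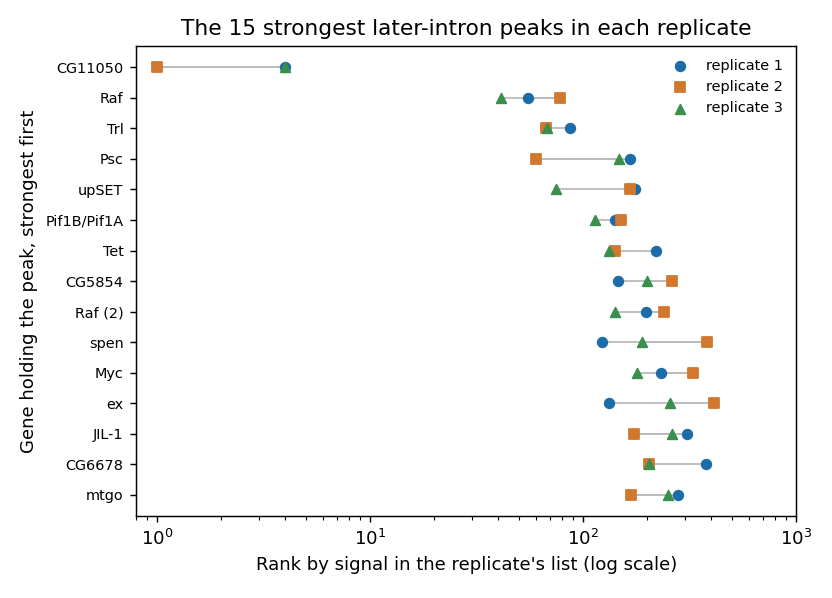
The rank by signal of the 15 strongest later-intron peaks (vertical axis, named by gene, strongest first) in the list of each replicate (horizontal axis, log scale, rank 1 is the strongest region). Circles, squares and triangles are replicates 1, 2 and 3; the CG11050 peak stands at ranks 4, 1 and 4 and the others between 41 and 410.

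Support by replicates over the whole set was near that of the IDR list. All 3 replicates supported 584 of 901 later-intron peaks (64.8%, 61.6 to 67.9), against 65.6% of all IDR peaks. Replicates 1, 2 and 3 supported 84.6%, 81.5% and 87.6% (84.5% ± 3.05, SD, n = 3). The share fell along the signal scale: with the peaks split by signal into 3 equal parts, it was 99.0% in the strongest (median signal 240), 76.7% in the middle (133) and 18.9% in the weakest (95.3). The 100 strongest were all supported by 3 replicates. With the whole relaxed lists in place of the strongest regions, 99.1% were found in all 3 replicates. The IDR list was made from the same libraries, so these values are a description and not a test. Across peaks, the Spearman correlation of ranks was 0.70 for replicates 1 and 2, 0.76 for 1 and 3, and 0.71 for 2 and 3, over 894 to 898 peaks that share libraries.

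Signal values of the set ran from 83.2 to 1865, with a median of 133 and a 90th percentile of 301. First-intron peaks had a median of 140 and a 90th percentile of 339. In the replicates the median log2 signal of the later-intron regions among the 6410 strongest was below that of the first-intron ones in 3 of 3, by 0.11, 0.06 and 0.07 in replicates 1, 2 and 3 (exact sign-flip test, p = 0.25, the smallest that 3 replicates allow). At the edges of the rule, the later-intron peaks nearest to a start lay 505, 515 and 524 bp from it, in pAbp, CG32085 and eIF1A, with signal values of 487, 87.7 and 86.5. Among IDR summits within 500 bp of a start that otherwise met the rule, the farthest lay 487, 486 and 484 bp from it, at Cyp310a1, EcR and bip1.

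Later introns held fewer peaks than first introns for their length. Over 29.4 Mb of later-intron sequence more than 500 bp from any start there were 30.7 IDR peaks per Mb (95% Poisson interval 28.7 to 32.7), and over 22.1 Mb of first-intron sequence 82.7 (79.0 to 86.6). These intervals cover counting error only. Distance from a start differs between the classes, with medians of 5662 bp for later-intron peaks and 2479 bp for first-intron peaks, so densities were also taken by distance. Between 0.5 and 1 kb from a start the densities were 46.6 and 126 per Mb, between 4 and 8 kb 36.1 and 75.7, and beyond 16 kb 13.4 and 38.3. Later introns were lower in all 6 ranges of distance. Weaker regions were also sparser in later introns in each range, with 157 per Mb against 271 in first introns over all distances.

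**Figure D2:**
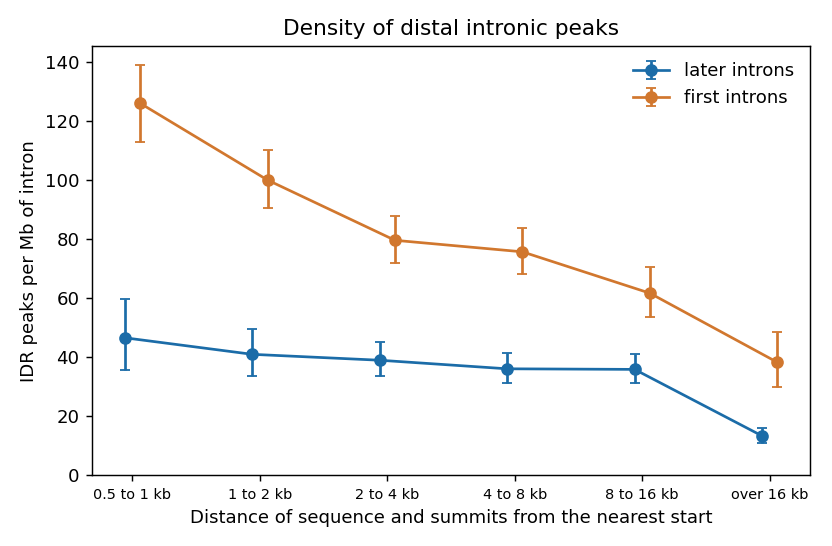
IDR peaks per Mb of intron (vertical axis) in later and first introns, in 6 ranges of distance from the nearest annotated start (horizontal axis). Bars are 95% Poisson intervals; the later-intron points run from 46.6 down to 13.4 and lie below the first-intron points in every range.

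The comparison with weaker regions had the same direction. Of distal intronic summits, 33.0% of the IDR peaks (31.3 to 34.8; 901 of 2727) and 43.5% of the weaker regions (42.6 to 44.5; 4615 of 10598) lay in later introns. This gave an odds ratio of 0.640 (Woolf interval 0.585 to 0.699). The two-sided exact test of Fisher, run across regions, gave p = 1.20e-23, or 3.60e-23 adjusted over 3 such tests. Regions are not replicates. In each replicate, the later-intron share was 32.9%, 32.1% and 33.1% among its 6410 strongest regions and 42.1%, 44.0% and 42.5% among the rest, a difference of -10.1 ± 1.47 percentage points (SD, n = 3; exact sign-flip test p = 0.25, the smallest possible). It was lower in 3 of 3 replicates. With the 6 ranges of distance as strata the pooled odds ratio was 0.705. Between 0.5 and 1 kb, IDR peaks were 21.8% of the peaks and weaker regions in later introns and 29.6% in first introns. Beyond 16 kb they were 14.6% and 14.7%, so the difference was not seen there.

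Genes with long introns of both classes gave the same order, in densities that were not matched for distance from a start. In 527 genes with at least 5 kb of each, later introns held 496 IDR peaks at 30.8 per Mb (28.1 to 33.6) and first introns 640 at 59.4 per Mb (54.9 to 64.2). In 180 of these genes the density was higher in the first introns and in 105 in the later ones. The remaining 242 had no peak in either.

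Within the gene, most later-intron peaks lay in the second intron. The intron number was that of the shortest intron around the summit, and the lowest one where transcripts that share this intron differ. It was 2 for 61.4% of the peaks (58.1 to 64.6) and 54.9% of the weaker regions (53.4 to 56.3). It was 6 or more for 5.33% and 10.5%. The last intron of the transcript held 7.33% of the peaks and 9.27% of the weaker regions. The median length of the intron was 14989 bp for peaks and 13581 bp for weaker regions, a ratio of 1.10, and 62.2% of the peaks (58.9 to 65.3) and 60.1% of the weaker regions (58.7 to 61.5) were in introns of at least 10 kb. In the replicates the ratio of strongest to remaining regions was 1.03, 1.20 and 1.22 (exact sign-flip test p = 0.25). With the intron divided into 4 equal parts from its 5′ end, these held 26.5%, 28.6%, 27.2% and 17.6% of the peaks, against 31.0%, 27.2%, 21.8% and 20.0% of the weaker regions.

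The peaks came in groups. Another IDR summit lay within 5 kb of 68.7% of the later-intron peaks (65.6 to 71.7), of 44.6% of the weaker regions (43.1 to 46.0) and of 77.7% of the first-intron peaks. Weaker regions overlap no IDR peak by definition, whereas some IDR peaks overlap each other, as in fwe. Part of the difference from weaker regions is thus set by the rule. The median distance to the nearest other IDR summit was 2274 bp. The 901 peaks lay in 399 protein-coding genes. Of these genes 215 held 1 peak, 184 held at least 2, 48 held at least 5 and 7 held at least 10. The 48 genes held 36.1% of the peaks.

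The highest count was 22 in kirre, an adhesion protein of the immunoglobulin family that guides muscle precursors to fuse. Its peaks had signal values of 95.1 to 406 (median 165), were spread over 355 kb, and 20, 15 and 22 of them were supported by replicates 1, 2 and 3. Of the 22, 3 also lay in introns of CG32795 or Syx4, at 1.89, 46.38 and 47.08 kb from the 5′ end of kirre. The others lay between 237.69 and 356.82 kb. CG1677 held 16 peaks with signal values of 88.4 to 294 within 44.3 kb, of which 12 were supported by all replicates. Tet held 15, from 88.7 to 610. The introns of Raf held 11, from 117 to 870 within 40.2 kb, at 3.27 per 10 kb of later-intron sequence, against 0.750 per 10 kb in kirre.

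The other genes of this group had lower counts. SKIP, which encodes an interactor of the Shal potassium channel, held 10 peaks of at most 213, of which 4 were supported by all replicates. mtgo held 10 (8 supported), with signal values of 96.7 to 498. rdx, an adaptor of a ubiquitin ligase that limits Hedgehog signalling, held 10 (6 supported), of at most 319. msn, a kinase upstream of JNK, held 9 (5 supported), of at most 415 within 15.9 kb. In msn all 9 IDR peaks of the gene were later-intron peaks, in Raf 11 of 14 and in kirre 22 of 29. In kirre the peaks were concentrated in the 3′ part of the gene, as the map shows.

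**Figure D3:**
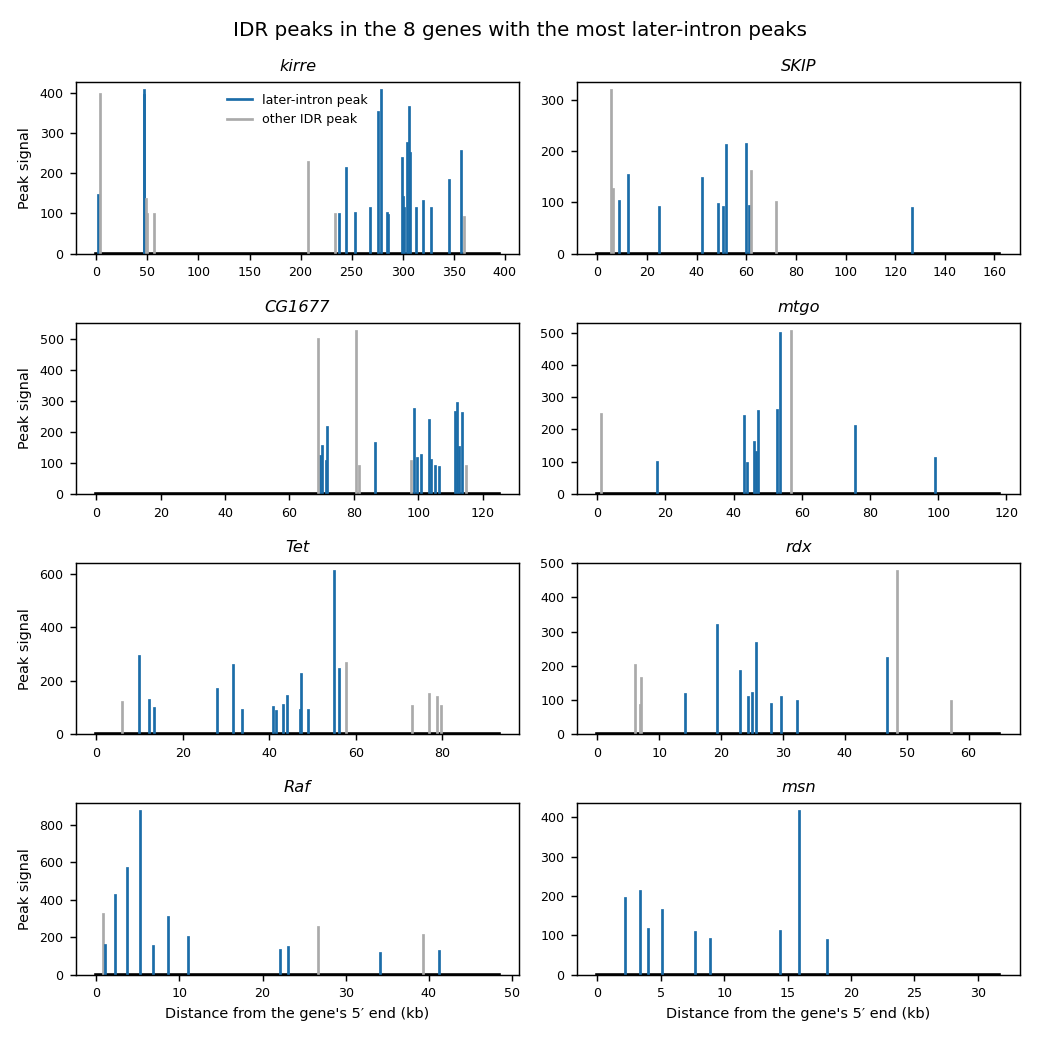
IDR peaks along the 8 genes with the most later-intron peaks: distance of the summit from the gene's 5′ end in kb (horizontal axes, each gene to its own scale) and signal of the peak (vertical axes, each to its own scale). Blue lines are later-intron peaks, grey lines all other IDR peaks, and the black bar is the gene; Raf has its strongest peak, of 870, in its 5′ part, and kirre has 22 later-intron peaks.

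Genes with a later-intron peak often had an IDR peak at their own promoter. Of 1163 genes with a peak or weaker region of the class, 399 held a peak (34.3%). A summit within 500 bp of a start of the same gene was found for 221 of these 399 (55.4%, 50.4 to 60.3) and for 221 of the 764 genes with weaker regions only (28.9%, 25.7 to 32.3). The odds were 3.05 times as high (2.37 to 3.92). Fisher's exact test over these genes gave p = 2.45e-18, or 3.68e-18 adjusted over 3 tests, and genes are not replicates. Taken from each replicate alone, the shares were 55.2% ± 3.69 against 28.4% ± 2.86, a difference of 26.8 ± 0.843 percentage points (SD, n = 3; exact sign-flip test p = 0.25) with the same sign in 3 of 3 replicates. Holders had more later-intron sequence, with a median of 13.1 kb against 7.80 kb. With genes in 5 strata of that length the odds ratio was 3.17. A first-intron IDR peak was found in 44.6% of the holders and 21.7% of the others. Over all 13945 protein-coding genes, 15.6% had a promoter peak. Promoter and intronic peaks come from the same list, and open chromatin, which may act on both, was not measured.

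The gene lists were described by counts against the 34.3% of all genes with a region. No test was made, and the number of genes with a region sets how far a share can be read. Ecdysone is the steroid that drives metamorphosis, and of the genes in its cascade, 11 of 14 with a region held a later-intron peak. Weaker regions were also dense in this cascade, with 377 per Mb against 157 over all genes. Peaks were 18.8% of its peaks and weaker regions together, against 16.3% over all genes. The median later-intron sequence of genes with a region was 24.9 kb here and 9.15 kb over all genes. E23, a transporter that limits the hormone response, had 4, the strongest of 419. tai, the coactivator of the hormone receptor, had 8, the strongest of 364. EcR, the receptor itself, had 4, the strongest of 278. Each of these strongest peaks was supported by 3 replicates.

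Chromatin regulators had peaks in 10 of 12 genes with a region, and 31 peaks over 197 kb of later-intron sequence, or 158 per Mb, against 30.7 over all genes. Of the genes on the list, which does not include upSET, Trl, Psc and Tet had the strongest peaks. Tet alone held 15 of the 31, in 49.5 of the 197 kb. Signalling pathway genes held peaks in 26 of 38, at 116 per Mb. Weaker regions were also denser on both lists, with 264 per Mb for chromatin regulators and 353 for signalling genes, against 157 over all genes. Peaks were 37.3% and 24.7% of the peaks and weaker regions of these lists, against 16.3% over all genes. Besides Raf and ex, fz, the receptor of planar polarity and Wnt signals, held 7 peaks with a strongest of 495.

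Transcription factors of development were close to the background by share, with 24 of 61 genes. By density they were above it, with 57.5 peaks per Mb against 30.7 over all genes. Weaker regions were also denser in them, with 270 per Mb against 157. pnt, an ETS factor downstream of receptor tyrosine kinases, held 7 peaks (strongest 457), zfh1, a zinc finger and homeodomain factor of mesoderm, held 1 (409), and grh, a factor of epidermal genes, held 5 (371). Genes of adhesion and axon guidance were close to the background by share, with 29 of 83, and by density, with 29.0 per Mb. On this list kirre alone held 22 of the 88 peaks, in 293 of the 3038 kb. Here Sema1a, a guidance molecule, held 4 peaks (strongest 448), and Ten-a, a teneurin adhesion protein, held 5 (372). Muscle and cytoskeleton genes had peaks in 13 of 25, and kirre, which is also on this list, held 22 of the 44 peaks. After kirre, Msp300, a nesprin that positions muscle nuclei, held 1 (219) and if, an integrin of muscle attachment, held 4 (213).

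RNA-binding and splicing regulators had peaks in 12 of 23 genes with a region. Their density was nevertheless below that of all genes, with 23.1 peaks per Mb against 30.7. The median later-intron sequence of genes with a region was 35.1 kb on this list and 9.15 kb over all genes. pAbp, the poly(A)-binding protein, held 1 of 487, heph, a splicing regulator, 4 with a strongest of 479, and brat, a translational repressor, 2 with a strongest of 323. Genes of ion channels and synapses had the lowest share and density of all lists. Only 4 of 35 held a later-intron peak (11.4%, 3.20 to 26.7), with 4 peaks over 1496 kb, or 2.67 per Mb. The strongest 3 of them were in Syn (297), the synaptic vesicle protein synapsin, nAChRalpha6 (137), a subunit of the acetylcholine receptor, and Trpm (134), a cation channel. Weaker regions were sparse in these genes as well, with 93, or 62.2 per Mb, against 157 per Mb over all later introns. Cell type shares in the pupa were not measured, so the part of neurons among the sampled cells cannot be told.

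**Figure D4:**
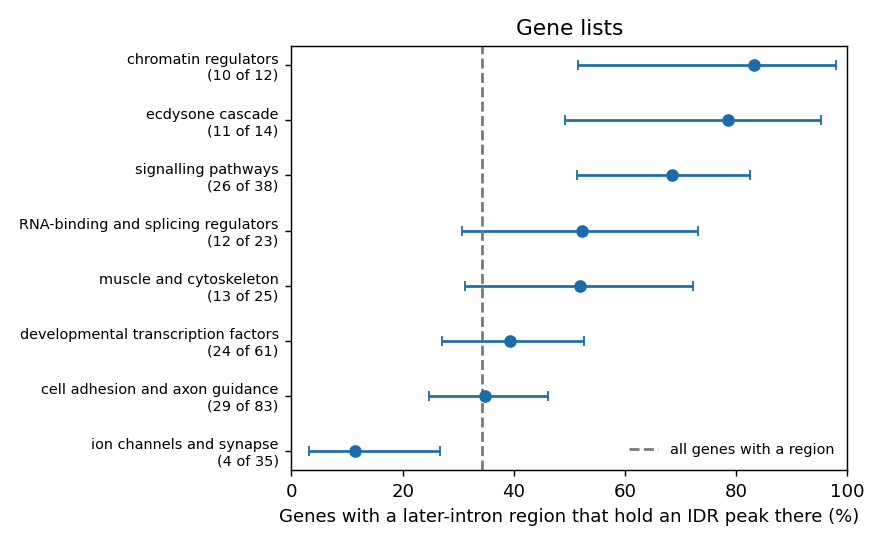
Share of genes with a later-intron region that hold an IDR peak there (horizontal axis, in percent) for 8 gene lists (vertical axis, with counts). Bars are 95% Clopper-Pearson intervals and the dashed line is the 34.3% of all such genes; the shares run from 11.4% for ion channels and synapses to 83.3% for chromatin regulators.

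Summits of later-intron peaks were rich in A and T. The mean G and C content within 50 bp of the summit was 33.3% ± 8.08 (SD over 901 regions) for peaks and 37.5% ± 9.49 for 4615 weaker regions, and 34.1% for first-intron peaks. In each replicate the strongest regions were lower than the rest, by 3.78, 5.06 and 4.40 percentage points (4.41 ± 0.637, SD, n = 3; exact sign-flip test p = 0.25). The difference turned around beside the summit. In 51 bp windows 200 bp before and after it on the plus strand, the later-intron peaks had 45.5% and 45.8% and the weaker regions 42.2% and 42.8%. At 500 bp the contents of peaks, weaker regions and first-intron peaks were 42.6%, 42.3% and 42.2%. Content was below that of the flank in 79.1% of the peaks and 64.5% of the weaker regions. Individual peaks ranged from 12.9% to 59.4%. It also moved with signal, from 31.5% in the strongest of the 3 parts by signal to 34.9% in the weakest. Nearly all weaker regions (99.9%) and 74.0% of the peaks had the caller's width of 430 bp, and peaks of that width had a mean of 33.7% against 32.0% for those of other widths. Peaks of 430 bp were weaker, with a median signal of 117 against 262.

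**Figure D5:**
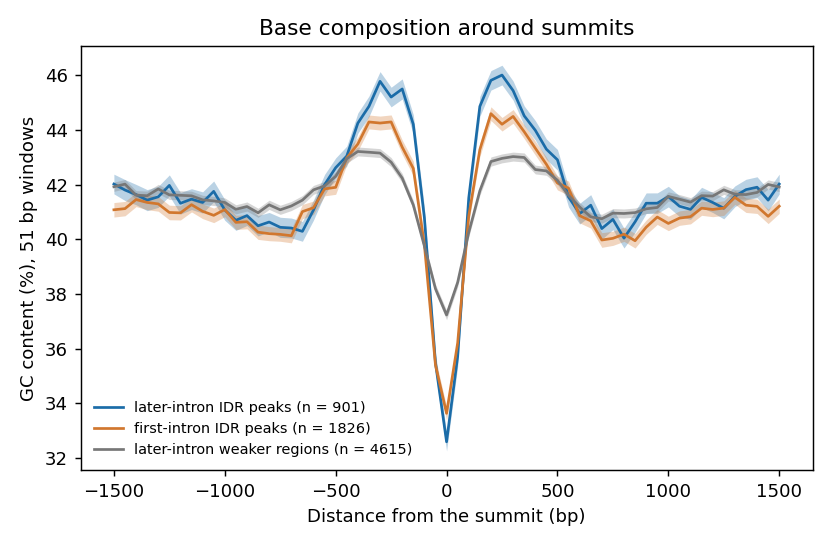
Mean G and C content in 51 bp windows (vertical axis, percent) by distance from the summit (horizontal axis, bp) for later-intron IDR peaks, first-intron IDR peaks and weaker later-intron regions. Shaded bands are the standard error over regions; all 3 curves dip at the summit, and the later-intron peaks dip to 32.6% and rise above the weaker regions on both flanks, to 45.8% against 42.8% at 200 bp.

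Sequence words were looked for in the same windows, on either strand, first as 38 motifs of known factors or simple repeats. Of these, 4 (10.5%) passed an adjusted p of 0.05 in Fisher's exact tests over regions, with Benjamini-Hochberg adjustment over the 38. AGGATA, described above as a word bound by Tramtrack, was in 4.44% of the peaks and 2.15% of the weaker regions (odds ratio 2.12, 1.46 to 3.08, exact test, adjusted p = 0.00328). A run of 7 A was in 21.0% and 16.4% (1.35, exact test, adjusted p = 0.0140). Lower in peaks were CAGCTG, an E-box bound by basic helix-loop-helix proteins, with 1.11% and 3.55% (0.305, exact test, adjusted p = 9.85e-04), and GCCAT, the core of the Pleiohomeotic site, with 13.1% and 17.4% (0.716, adjusted p = 0.0140). Each of the 4 had the same direction in 3 of 3 replicates. In first-intron peaks, AGGATA was in 2.63% and the run of A in 18.0%. CAGCTG was in 3.12% of them and GCCAT in 11.1%, and differences from later-intron peaks were not tested.

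Base composition moved with these calls. In a Cochran-Mantel-Haenszel test over 5 strata of window G and C content, 2 motifs passed. AGGATA was again higher in peaks, with an odds ratio of 1.96 (n = 901 peaks and 4615 weaker regions, adjusted p = 0.0110). GAGAG, the core of the GAGA factor site, was higher with 1.61 (n = 901 and 4615, adjusted p = 6.35e-04). Without strata GAGAG was in 13.8% of the peaks and 11.7% of the weaker regions (1.20, exact test, adjusted p = 0.296). It was in 13.3% of the first-intron peaks. Within 100 bp of the summit and without strata, 5 motifs passed: GAGAG with an odds ratio of 1.29 (exact test, adjusted p = 0.0195), the run of A (1.30), CAGCTG (0.523), GCCAT (0.720) and TGACAG, a word of TALE homeodomain proteins (0.629). AGGATA did not, with 1.24 (exact test, adjusted p = 0.475). When the weaker regions were limited to those found in all 3 replicates, none of the 38 motifs passed. A word in a window is a description and no sign that the factor binds there.

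Among all 2080 six-letter words, merged with their reverse complements, 127 (6.11%) passed the same test, 62 higher and 65 lower in later-intron peaks. Of the 62, 51 contained at most 1 G or C, and 64 of the 65 contained at least 3. In 3 of 3 replicates, 61 of the 62 were higher in the strongest regions, and the exception was CCTAGG, higher in 2. The highest odds ratios belonged to CCTAGG (5.16; 8 peaks and 8 weaker regions), AGGATA (2.12), AAGATC (1.97), ATCTTA (1.93), AAGAAT (1.90), GTGAGA (1.84), TACTAA (1.84), AATAGT (1.82), AGATCA (1.79) and AGTATC (1.79). At least 1 of these 10 was in 47.5% of the peaks and 29.1% of the weaker regions, which is a description because the words were chosen on the same windows. AAGAAT was the most frequent of them, in 13.5% of the peaks and 7.61% of the weaker regions (exact test, adjusted p = 3.83e-05). The lowest odds ratios belonged to CCCGAG (0.0592), CACGTC (0.0975), ACCGCG (0.0975), CAGGAC (0.131) and GGCCCC (0.140). With 5 strata of G and C content 12 words passed, among them AAGAAT (odds ratio 1.57) and CCTAGG (5.42). Of the 12, 6 contain GAG, such as AGAGAG (1.77) and GAGAGC (2.00). Not all of these hold GAGAG, as AGAGCG (2.08) and AGCGAG (1.95) show. Lower in peaks were ACTTTA (0.583) and ATAAAT (0.688). Of these 12, 5 also passed without strata.

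The set was spread over all large chromosome arms. The density in later introns was 43.1 per Mb on X (37.6 to 49.3), 34.1 on 2L, 29.9 on 3L, 28.2 on 2R and lowest on 3R (21.8 to 28.6). X held 23.9% of the later-intron peaks (21.1 to 26.8) and 21.1% of the weaker regions (19.9 to 22.3), an odds ratio of 1.17 (0.992 to 1.39; Fisher's exact test p = 0.0628, adjusted 0.0628). Of the peaks supported by replicates 1 and 3, leaving replicate 2 out, the odds ratio was 1.28 (exact test, p = 0.00955). It was 1.13 without replicate 1 (exact test, p = 0.221) and 1.13 without replicate 3 (exact test, p = 0.236). In the replicates alone the X share was higher in the strongest regions by 3.66, 3.25 and 4.07 percentage points, with the same sign in 3 of 3 (exact sign-flip test p = 0.25). The small chromosome 4 held 0 of the 901 peaks and 51 weaker regions, which allows a share of up to 5.88% of its 51 regions (3 counts; counting error only).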

How the data were processed

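The deposited lists hold regions in narrowPeak format, in which the signal of each region was written by the authors' peak caller. Per the deposited text files, lists were called against a control for each of the 3 replicates and for the pooled replicates, and the IDR list was derived from them. Caller, aligner and threshold: not given in the sources used here. The control was not analysed here. Lists in dm3 were not used. The peaks of the IDR list were the pooled regions of highest signal, so weaker regions are those below it.

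Summits in dm6 (start plus column 10, printed 1-based) were placed in the Ensembl annotation (release 115, BDGP6), and windows of 50 bp to each side of the summit were read from the RefSeq genome of the same assembly. Where transcripts differ, the shortest intron around a summit was used, with its lowest number among the transcripts that share it. Tests were two-sided Fisher's exact tests with Woolf intervals, Cochran-Mantel-Haenszel tests and exact sign-flip tests over replicates, run with scipy 1.17.1 and numpy 2.4.6 under Python 3.11.15 (figures with matplotlib 3.10.9) and checked on simulated data. P-values across regions do not measure the spread between animals. Densities use intron sequence of the class; in the comparison within genes, sequence shared by overlapping genes was counted for each.

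The members, gene lists and motifs were chosen with earlier results of these data known. The 8 lists have 724 entries, of which 9 matched no gene. Named are the genes of the 15 strongest peaks, the 8 with most peaks, the 3 of each list with the strongest peak, the motifs called, and the 10 and 5 called words of highest and lowest odds ratio; the GAGAG windows, other genes and words were added after their values were seen. Alternatives were other distances to starts, the list cut at its median signal, merged overlapping peaks, other windows, overlaps and strata, and leaving out each replicate.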

Additional observations from a re-analysis of the deposited data

How the results depend on the processing

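No paired analysis was possible because there is 1 group. Of 83 alternative values, 65 kept their direction and their side of the threshold or stayed near the reported value, among them every alternative tried for the later-intron share of distal intronic summits, for the intron length ratio and for promoter peaks of the genes that hold a peak. The cause of the changes that follow was not tested, except where the alternative itself uses fewer peaks or another overlap rule. Support by all 3 replicates was 96.4% among IDR peaks above the list's median signal, 53.2% with summits within 100 bp of each other and 99.1% with whole lists. The odds ratio for X was 1.20 with starts taken at 250 bp (exact test, p = 0.0290) and 1.20 at 1000 bp (p = 0.0476), and 1.13 to 1.28 when each replicate was left out in turn. The difference in G and C content was -5.61 points above the median signal, -2.39 within 100 bp of the summit and -4.90 to -4.47 with a replicate left out, against -4.25. The log2 difference in median signal to first-intron peaks was -0.07, and -0.13 to -0.11 with a replicate left out. The number of motifs called was 2 with 5 strata of G and C content and 0 against weaker regions found in all 3 replicates, against 4; 7 motifs had an unadjusted p under 0.05 in the reported test. The number of words called was 63 above the median signal, 12 with strata and 27 against weaker regions found in all 3 replicates, against 127. Peaks above the median signal lay in 249 genes, against 399. Depth is unknown, and with 3 replicates no sign-flip test can go below 0.25.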
